A study of Homo sapiens with 27 samples.

Results

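Mature miRNA profiles of wild-type human embryonic stem cells (hESCs) were set against those of unperturbed K562 leukemia cells. The series holds 27 small RNA libraries in 9 groups of 3, made for a study of the RNA 3′ end nuclease USB1 in blood formation, and the 6 libraries of these 2 groups were compared here. The hESC WT group was H1, an established embryonic stem cell line of WT genotype, with no treatment in its labels. The study's methods describe growth of H1 in mTeSR1 on Matrigel, and also a feeder-based condition on growth-arrested mouse embryonic fibroblasts, at lowered oxygen. The K562 control group was K562, an established line from chronic myelogenous leukemia (CML) also labelled WT for USB1, grown in serum-containing Iscove's medium. Neither group carried an edited allele, a transgene or a knockdown construct in its labels. The members were all mature miRNA entries listed for either group, 1985 of 2276 in the whole series. Of these 1985, 1688 were listed for hESC WT and 1585 for K562 control. 1288 were listed for both, 400 for hESC WT only and 297 for K562 control only. Each deposited table lists only entries with a count in its first library, so an absent entry had no count in library 1 and unknown counts in libraries 2 and 3. Of the 1288 shared entries, 894 passed a filter on low counts and were tested, and they held at least 99.927% of the counts of each library.

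miRNAs are short RNAs cut from hairpin precursors by Drosha and Dicer, and either arm of the hairpin (5p or 3p) can be loaded into an Argonaute protein. The loaded strand pairs with messenger RNAs mainly through its seed, bases 2 to 8, so miRNAs that share a seed are predicted to share targets. Pluripotent stem cells are known for the miR-302 cluster, which also holds miR-367, for the miR-371-373 cluster and for the primate-specific C19MC cluster, while blood cells are known for miR-223, miR-142, miR-144 with miR-451a and miR-486. K562 is a CML line with erythroid and megakaryocytic features.

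Total miRNA counts were 17359868, 16071219 and 14709905 in hESC WT libraries 1 to 3, and 9914491, 6287087 and 10556927 in K562 control libraries 1 to 3. Cell line, culture and any difference in library handling cannot be told apart, because each line was one group. The study calls its replicates biological, but the labels do not say that they came from separate cultures, so p-values measure only the spread between these libraries. In bulk RNA, fewer cells with a miRNA and less of it per cell cannot be told apart either. 2 features of the libraries touch the results below. K562 control libraries 1 and 2 held 14569 and 9760 counts of the miR-302 and miR-367 cluster, against 2 counts in K562 control library 3. These sums cover all 10 arms. The other 9 K562 libraries of the series held 0 to 7 counts, over only the 1 or 2 arms listed for their groups. Counts of unlisted arms are unknown in libraries 2 and 3 of those groups. hESC WT library 1 stood apart from hESC WT libraries 2 and 3, since chi-squared over its degrees of freedom was 577 and 611 against these 2 libraries and 22.2 between them. Reads were not assigned by strand, so entries that are reverse complements of each other, or near-identical family members, can hold the same reads.

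The sequences below show what the seed groups share and where their members differ. They are mature RNAs from RefSeq (GRCh38.p14), written 5′ to 3′ with the seed, bases 2 to 8, in capitals. Of the 1288 shared entries, 1147 matched a RefSeq sequence by name. The first set carries the stem cell seed AAGUGCU and comes from 3 loci that were all higher in hESCs.
miR-302a-3p: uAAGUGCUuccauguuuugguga
miR-302b-3p: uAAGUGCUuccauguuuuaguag
miR-302d-3p: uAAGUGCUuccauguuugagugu
miR-372-3p: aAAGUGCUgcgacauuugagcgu
miR-520c-3p: aAAGUGCUuccuuuuagagggu
The next set carries AAAGUGC, the same letters moved by a base. Its members come from the 3 paralogous miR-17 clusters and changed in opposite directions between the lines.
miR-17-5p: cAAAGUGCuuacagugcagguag
miR-93-5p: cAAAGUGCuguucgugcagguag
miR-106a-5p: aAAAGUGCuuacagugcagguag
miR-20b-5p: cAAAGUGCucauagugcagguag
The third set carries AUUGCAC. It joins the miR-17 clusters to the miR-302 cluster through miR-367-3p.
miR-92a-3p: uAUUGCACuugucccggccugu
miR-25-3p: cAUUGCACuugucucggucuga
miR-363-3p: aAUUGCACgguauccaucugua
miR-367-3p: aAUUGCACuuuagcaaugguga
The fourth set is the part of the epithelial miR-200 family with the seed AAUACUG.
miR-200b-3p: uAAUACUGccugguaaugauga
miR-200c-3p: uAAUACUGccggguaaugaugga
miR-429: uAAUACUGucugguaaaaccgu
The fifth set holds single miRNAs that took a large share of 1 line or differed most between the lines.
miR-302a-5p: aCUUAAACguggauguacuugcu
miR-148a-3p: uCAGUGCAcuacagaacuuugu
miR-155-5p: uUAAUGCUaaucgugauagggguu
miR-223-3p: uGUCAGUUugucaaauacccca
miR-142-3p: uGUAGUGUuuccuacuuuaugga
miR-10a-5p: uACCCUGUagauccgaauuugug
miR-146b-5p: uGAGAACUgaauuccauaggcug
miR-126-3p: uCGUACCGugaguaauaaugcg
The last sets are the 2 arms of 2 hairpins whose dominant arm differed between the lines, and a pair of reverse complements whose counts could not be separated.
miR-18b-5p: uAAGGUGCaucuagugcaguuag
miR-18b-3p: uGCCCUAAaugccccuucuggc
miR-135a-5p: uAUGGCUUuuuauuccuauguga
miR-135a-3p: uAUAGGGAuuggagccguggcg
miR-7-5p: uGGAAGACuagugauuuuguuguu
miR-3529-3p: aACAACAAaaucacuagucuucca

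Coordinates are those of RefSeq, and host genes are those of the GENCODE annotation on the same strand. The miR-302 hairpins lie in exons of the long noncoding RNA MIR302CHG (miR-302b-3p at chr4:112648489-112648511, minus strand). miR-372-3p lies at chr19:53787931-53787953 and miR-520c-3p at chr19:53707506-53707527, both on the plus strand with no host gene. miR-17-5p lies in an exon of MIR17HG (chr13:91350618-91350640, plus), miR-25-3p in an intron of MCM7 (chr7:100093571-100093592, minus), and miR-363-3p outside any host gene (chrX:134169382-134169403, minus). miR-92a-3p has 2 loci, on chromosomes 13 and X. miR-223-3p lies in an exon of MIR223HG (chrX:66018937-66018958, plus), miR-142-3p in an exon of MIR142HG (chr17:58331245-58331267, minus), miR-126-3p in an intron of EGFL7 (chr9:136670653-136670674, plus) and miR-10a-5p in an intron of HOXB3 (chr17:48579904-48579926, minus).

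miR-148a-3p was the most abundant miRNA of both lines by mean CPM, although in hESC WT library 1 miR-302a-5p took more of the counts. miR-148a-3p took 24.0, 30.6 and 32.3% of the counts in hESC WT libraries 1 to 3, and 31.6, 35.5 and 35.4% in K562 control libraries 1 to 3. The hESC profile was otherwise led by the miR-302 cluster, which with miR-367 took 48.7, 42.8 and 41.6% of the counts in hESC WT, against 0.147, 0.155 and 1.89e-05% in K562 control. K562 cells were instead rich in miR-21-5p, a miRNA known from many tumors, with 2.39, 2.48 and 2.39% of counts in hESC WT and 15.5, 12.6 and 13.9% in K562 control. 5 of the 10 most abundant miRNAs were the same in both lines (miR-148a-3p, miR-21-5p, miR-92a-3p, miR-26a-5p and miR-151a-3p). The hESC profile was the more concentrated, since 23 to 25 miRNAs made up 90% of its counts, against 34 to 38 in K562 control.

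Levels below are CPM (counts scaled to a common depth) after TMM, a scaling that sets libraries equal over the bulk of miRNAs. Fold changes are log2 of hESC WT over K562 control, so positive values mean higher in hESCs. By edgeR's quasi-likelihood test at a Benjamini-Hochberg adjusted p under 0.05, 629 of 894 miRNAs (70.4%) differed. 339 (37.9%) were higher and 290 (32.4%) lower in hESC WT, and the median log2 fold change of all 894 was 0.07. Tested against a 2-fold change instead of no change, 434 (48.5%) were called, 256 (28.6%) higher and 178 (19.9%) lower. The 3 libraries of each line did not overlap for 681 miRNAs (76.2%). Called differences of more than 100-fold were found for 88 miRNAs higher and 13 lower in hESCs. Of the 894, 29 had at most 3 counts over the 3 K562 control libraries and 10 at most 3 over the 3 hESC WT libraries. Such entries passed the filter only through the other line, so their direction was fixed in advance, also within the lists and clusters below. The direction of small changes depended on the scaling: with library totals in place of TMM, every fold change moved by about -1.20, and 214 were called higher and 486 lower. Across the 894 miRNAs Spearman's rho between libraries was 0.963 to 0.986 within hESC WT, 0.949 to 0.975 within K562 control, and 0.426 to 0.496 between lines, as a description across miRNAs.

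**Figure D1:**
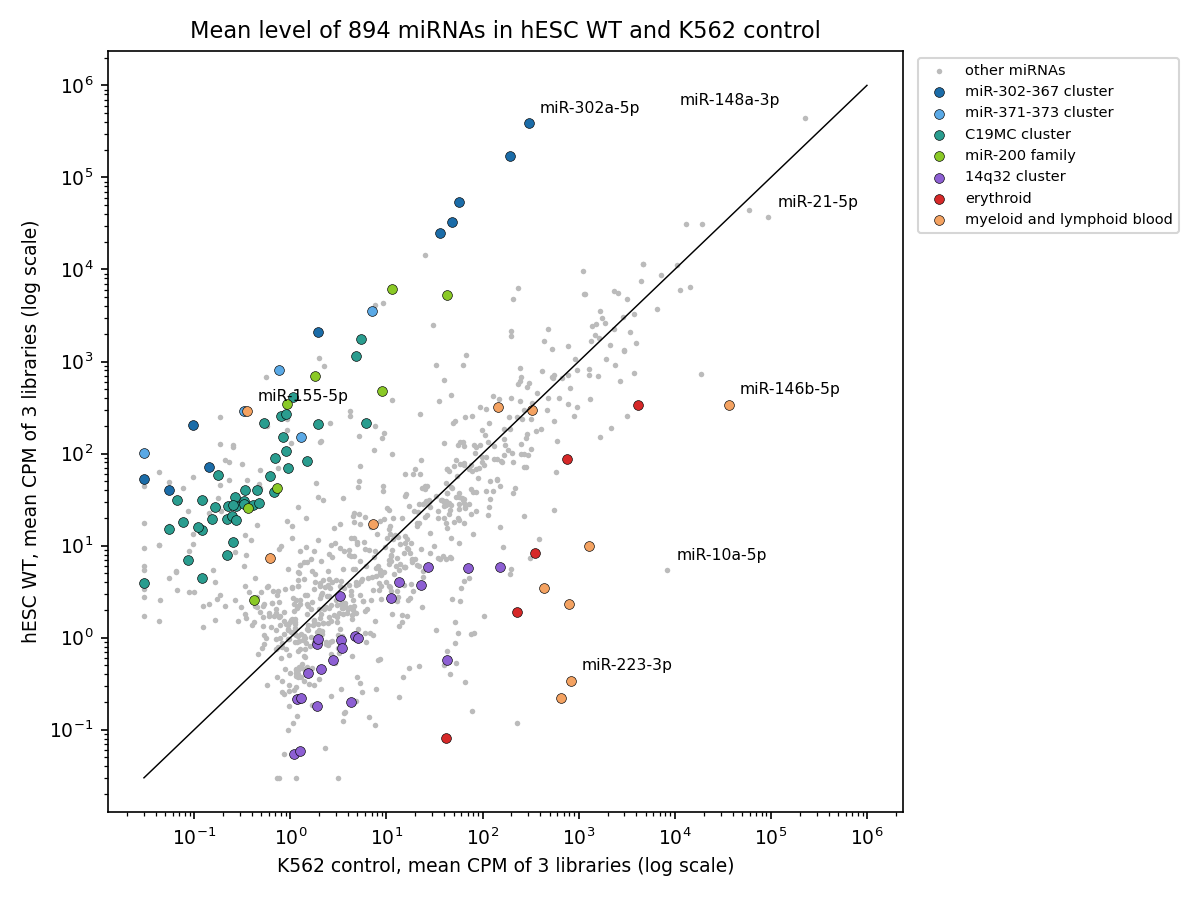
Mean CPM of 894 miRNAs in hESC WT (vertical) and K562 control (horizontal), both on log scales, with the line of equal level and 7 miRNA lists in color; means too low for the scale are drawn at its low end. Stem cell clusters lie above the line, erythroid and 14q32 miRNAs below it, and miR-148a-3p sits near the line at the top of both profiles.

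The miR-302 cluster with miR-367, which is known to restrain cell cycle inhibitors and differentiation genes in stem cells, was the largest single difference in counts. All 10 of its arms were higher in hESCs, with a median log2 fold change of 9.84. miR-302a-5p had 424618, 360355 and 382024 CPM in hESC WT, against 450, 458 and 0 CPM in K562 control (log2 fold change 10.33, SE 3.01, edgeR adjusted p = 0.0294). miR-302b-3p had 150923, 181196 and 177625 CPM in hESC WT, against 281, 298 and 0.0674 CPM in K562 control (9.78, SE 2.72, adjusted p = 0.0251). The groups did not overlap, and the wide errors go with the split between K562 control libraries 1 and 2 and library 3. The other 3p arms followed the same pattern, with log2 fold changes of 9.90 for miR-302d-3p, 9.43 for miR-302c-3p and 9.41 for miR-302a-3p. The arms that were rare in every K562 control library had narrow errors. miR-302d-5p had 260, 177 and 183 CPM in hESC WT and 0.195, 0.0991 and 0 CPM in K562 control (10.88, SE 0.56), and miR-367-3p had 74.9, 73.5 and 65.0 CPM in hESC WT and 0.130, 0.297 and 0 CPM in K562 control (9.02, SE 0.58).

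The p-values of the abundant miR-302 arms rested on which libraries entered. The calls of miR-302a-5p, miR-302b-3p, miR-302c-3p and miR-302d-3p were lost without K562 control library 1 or 2 or any of the 3 hESC WT libraries (adjusted p 0.0542 to 0.115), and that of miR-302a-3p without K562 control library 2 (0.0717) or hESC WT library 1 (0.0545). All were strongest without K562 control library 3 (4.88e-07 for miR-302a-5p). With K562 control libraries 1 and 2 both left out, the spread came from the hESC WT libraries alone and the single K562 library was assumed to vary like them, here and wherever both are left out of a comparison of hESC WT with K562 control. In that fit, which has no measure of the K562 spread, the log2 fold changes were 25.09 for miR-302a-5p, 20.99 for miR-302b-3p and 12.67 for miR-367-3p. Fold changes of this size compare against 0 or 1 count in the remaining library and are no bound. Within the AAGUGCU seed, miR-302b-3p made up 55.5, 61.0 and 61.6% of counts in hESC WT and 54.7, 56.7 and 0.503% in K562 control libraries 1 to 3. miR-302d-3p made up 19.8, 18.3 and 18.7% in hESC WT and 17.3, 15.3 and 0% in K562 control. Within this seed, K562 control libraries 1 and 2 therefore held these 2 arms in shares close to those of hESCs. The cluster as a whole was less alike. In K562 control libraries 1 and 2, miR-302a-5p, which has another seed, stood at 0.272 and 0.286% of its mean hESC WT level. For miR-302a-3p the values were 0.523 and 0.530%. The source of the miR-302 counts in these libraries was not tested. Other miRNAs high in hESCs were split between K562 control libraries to differing degrees. miR-363-3p stood at 0.543, 0.651 and 0.0903% of its mean hESC WT level in K562 control libraries 1 to 3, and miR-200b-3p at 0.449, 0.728 and 0.155%. miR-335-3p stood at 0.698, 0.611 and 0.189%, and miR-187-3p at 0.411, 0.18 and 0%. miR-34a-5p was likewise lowest in library 3. Little split were miR-155-5p, at 0.264, 0.333 and 0.248%, and miR-516b-5p, at 0.748, 0.672 and 0.719%. A lower level in library 3 was thus not confined to the miR-302 cluster, and fold sizes of such miRNAs depend on the libraries used. The part that miR-302 counts in K562 control libraries 1 and 2 play in other results was not tested beyond leaving both out.

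The miR-371-373 cluster, in which miR-372-3p and miR-373-3p carry the AAGUGCU seed, was higher in hESCs in 5 of 5 arms tested, with a median of 9.74. miR-372-3p had 9294, 612 and 604 CPM in hESC WT, against 8.37, 8.13 and 4.92 CPM in K562 control (8.94, SE 1.70, adjusted p = 0.00597). miR-371a-3p had 786, 36.3 and 37.7 CPM in hESC WT and 0.260, 0.397 and 0.337 CPM in K562 control (9.74). hESC WT library 1 was far above hESC WT libraries 2 and 3 in every arm of the cluster, yet all 3 lay above K562 control. Without hESC WT library 1 the log2 fold changes were 6.48 for miR-372-3p, 6.85 for miR-371a-3p and 4.15 for miR-373-3p, and all 5 arms were still called. With K562 control libraries 1 and 2 both left out, 0 of 5 were called, at log2 fold changes of 7.43 to 13.16 with adjusted p of 0.124 to 0.225. The spread in that fit came from the 3 hESC WT libraries alone, library 1 among them. The calls of miR-371a-5p and miR-373-3p were lost without K562 control library 1 (adjusted p = 0.120 and 0.0508) or library 2 (0.0871 and 0.0660), that of miR-371b-3p without library 2 (0.0743), and that of miR-371a-5p without library 3 (0.0519). miR-371a-5p had 1 count in K562 control, and its pooled ratio was 4671 (95% counting interval 838 to 184563). Most of that ratio came from hESC WT library 1, and without it the ratio was 216 (38.0 to 8630). It is nearly the reverse complement of miR-371b-3p, so the 2 entries are uncertain.

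C19MC, the primate-specific miRNA cluster of chromosome 19 known from placenta and stem cells, was higher in hESCs in all 42 arms tested, with log2 fold changes between 4.96 and 8.68 and a median of 6.78. Arms nearly absent from K562 control, such as miR-520h (1, 0 and 0 counts) and miR-519d-3p (2, 0 and 1 counts), passed the filter only through hESC WT. Their direction was fixed by the filter, so the number of arms is no test of the cluster. A further 22 of its arms were listed for hESC WT only and 0 for K562 control only. miR-516b-5p, its most abundant arm, had 1817, 1639 and 1822 CPM in hESC WT, against 5.58, 4.86 and 5.93 CPM in K562 control (8.33, SE 0.20, adjusted p = 1.82e-07). miR-512-3p had 1140, 1142 and 1159 CPM in hESC WT and 5.78, 5.75 and 3.10 CPM in K562 control (7.88). The K562 level was low but not 0 in any of the 3 libraries for either arm. miR-1323 had 650, 299 and 291 CPM in hESC WT and 1.04, 0.892 and 1.28 CPM in K562 control (8.57), again with hESC WT library 1 the highest. miR-520c-3p, which carries the miR-302 seed, had 232, 210 and 193 CPM in hESC WT and 1.43, 2.38 and 2.02 CPM in K562 control (6.77). Many C19MC arms are near-identical and their counts may be split among members, so the family sum is the safer value: 6454, 5323 and 5371 CPM in hESC WT and 36.5, 36.0 and 28.7 CPM in K562 control.

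**Figure D2:**
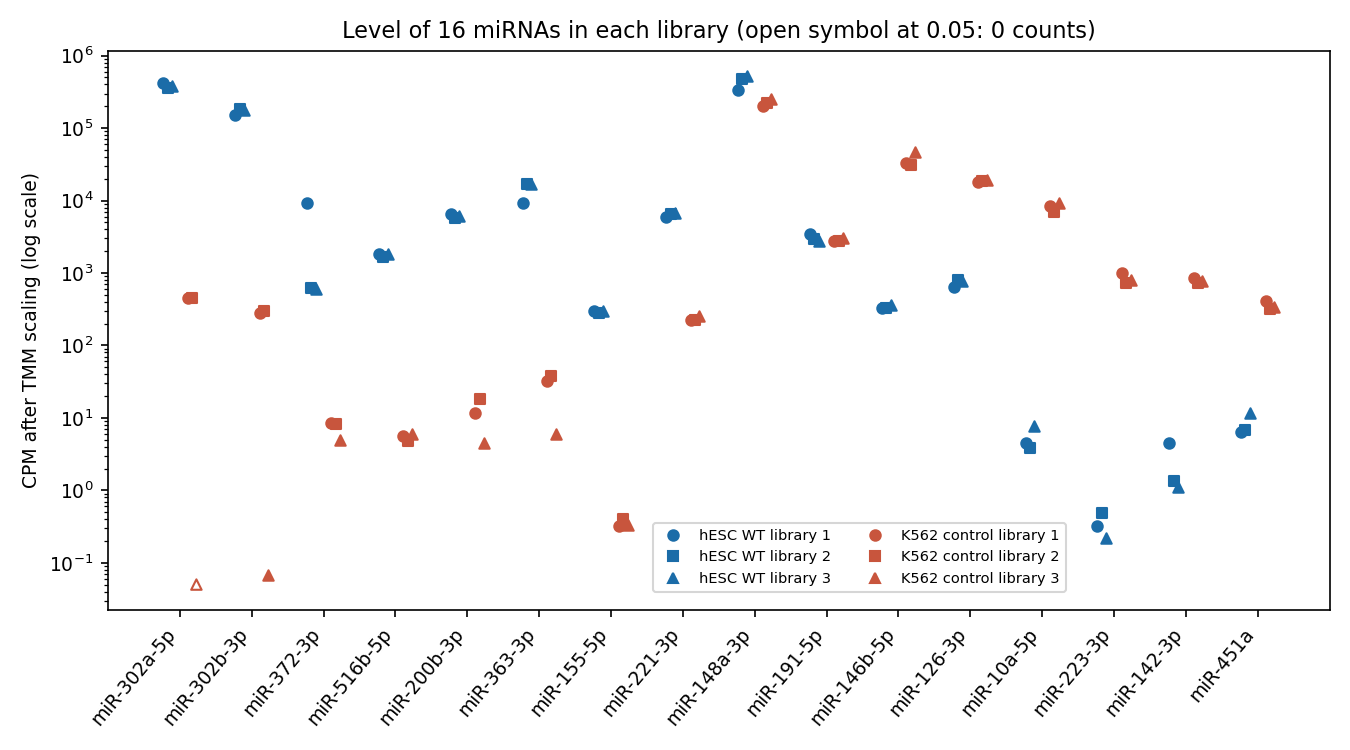
CPM of 16 miRNAs in each library on a log scale, hESC WT in blue and K562 control in red, with the symbol giving the library and an open symbol marking 0 counts. miR-302a-5p and miR-302b-3p in K562 control split between libraries 1 and 2 (281 to 458 CPM) and library 3, miR-372-3p in hESC WT splits between library 1 and libraries 2 and 3, and the other miRNAs vary less within a line than between lines except miR-148a-3p and miR-191-5p.

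The miR-17-92 cluster, a set of cell cycle miRNAs often raised in blood cancers, and its 2 paralogous clusters differed in their changes, though the direction of the third rested on the scaling. All 11 tested arms of the chromosome 13 cluster (MIR17HG) were lower in hESCs, with a median of -1.03. miR-20a-5p had 5295, 6312 and 6121 CPM in hESC WT and 12500, 9441 and 11911 CPM in K562 control (-0.93, SE 0.17, adjusted p = 0.00151), and miR-17-5p had 3395, 4028 and 3777 CPM in hESC WT and 7264, 5737 and 6831 CPM in K562 control (-0.82). miR-92a-3p, which also has the locus on chromosome X, differed least (-0.43, edgeR adjusted p = 0.0302). That call was lost without hESC WT library 2 (adjusted p = 0.157) or library 3 (0.138) or K562 control library 1 (0.0562).

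On the X chromosome, the miR-106a-363 cluster had 6 arms higher in hESCs, 2 lower and 1 not called, with a median of 6.37. The 2 lower ones, miR-92a-3p and miR-19b-3p, also have loci in the chromosome 13 cluster and were counted there too. Their counts cannot be assigned to 1 locus. miR-363-3p had 9330, 16928 and 16786 CPM in hESC WT and 32.6, 37.9 and 6.0 CPM in K562 control (9.14, SE 0.92, adjusted p = 0.000190). miR-20b-5p had 2307, 2705 and 2501 CPM in hESC WT and 38.6, 23.5 and 28.4 CPM in K562 control (6.37, SE 0.26). miR-106a-5p, with 816, 997 and 964 CPM in hESC WT and 72.7, 51.5 and 61.5 CPM in K562 control (3.90), differs from miR-17-5p by so few bases that the 2 may share reads. The third cluster, miR-106b-25 in MCM7, had 4 arms higher, 1 lower and 1 not called, with a median of 0.81. miR-93-5p had 2858, 3134 and 3010 CPM in hESC WT and 1760, 1622 and 1816 CPM in K562 control (0.79), a direction that turned to -0.41 with library totals. With library totals the cluster on MCM7 had 0 arms higher, 4 lower and 2 not called, with a median of -0.40, against medians of -2.23 for the chromosome 13 cluster and 5.16 for the X cluster. miR-25-3p of the same cluster had 9994, 11667 and 12171 CPM in hESC WT and 11412, 10426 and 10071 CPM in K562 control, overlapping between lines (0.08, 95% interval -0.26 to 0.43).

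Counts summed over all miRNAs of a seed showed that these opposite changes left some seed totals much alike. Over 649 seeds tested by edgeR, 446 sums (68.7%) differed, 244 (37.6%) higher and 202 (31.1%) lower in hESCs. The AAAGUGC total was not called, with 16012, 19243 and 18013 CPM in hESC WT and 22452, 18147 and 21461 CPM in K562 control (-0.22, 95% interval -0.59 to 0.15, adjusted p = 0.245). Its makeup differed: miR-20b-5p made up 15.1, 15.2 and 14.8% of it in hESC WT and 0.176, 0.136 and 0.136% in K562 control, while miR-20a-5p made up 34.8, 35.5 and 36.1% in hESC WT and 57.1, 54.8 and 57.0% in K562 control. The AUUGCAC total was not called either, with 87613, 83858 and 83401 CPM in hESC WT and 73208, 73733 and 75411 CPM in K562 control (0.20, 95% interval -0.11 to 0.50). Here miR-92a-3p made up 61.8, 52.2 and 52.1% in hESC WT and 82.2, 83.2 and 84.4% in K562 control. miR-363-3p made up 11.2, 21.8 and 21.4% in hESC WT and 0.0456, 0.0541 and 0.00817% in K562 control, and miR-92b-3p 14.9, 10.7 and 10.8% in hESC WT and 1.44, 1.58 and 1.63% in K562 control. With library totals both sums were lower in hESCs (-1.52 and -1.10).

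**Figure D3:**
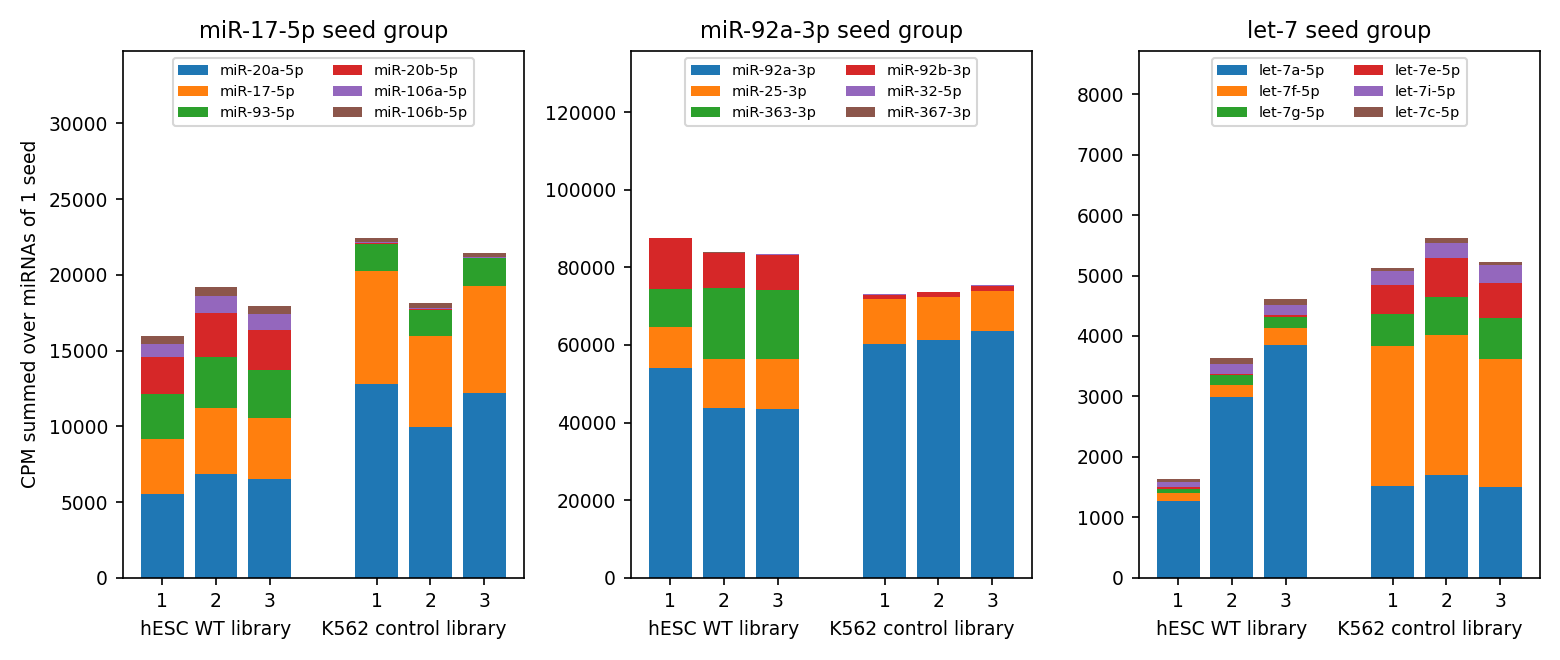
CPM summed over the miRNAs of 1 seed in each library (bars, stacked by miRNA, hESC WT libraries left and K562 control libraries right) for the seed groups of miR-17-5p, miR-92a-3p and let-7. The totals of the first 2 groups differ little between lines while miR-20b-5p, miR-106a-5p, miR-363-3p and miR-92b-3p appear almost only in the hESC WT bars.

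Other seed totals differed widely. AAGUGCU, summed over 12 miRNAs of the miR-302, miR-371-373 and C19MC clusters, had 285964, 321604 and 306519 CPM in hESC WT, against 526, 554 and 13.8 CPM in K562 control (9.71, SE 1.60, adjusted p = 0.00255). AAUACUG of the miR-200 family had 12633, 12284 and 12521 CPM in hESC WT and 65.3, 59.3 and 47.3 CPM in K562 control (7.77). The lines did not overlap for either seed. GAGAACU, the miR-146 seed, had 904, 541 and 583 CPM in hESC WT and 33975, 33501 and 48360 CPM in K562 control (-5.84), and CGUACCG, the miR-126-3p seed, changed by -4.62. The miR-148 and miR-152 seed CAGUGCA had 362784, 516800 and 560213 CPM in hESC WT and 210684, 236014 and 261606 CPM in K562 control (1.02), which turned to -0.28 with library totals and was no longer called without K562 control libraries 1 and 2 (0.77).

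The miR-200 family, which represses the transcription factors ZEB1 and ZEB2 and so holds cells in an epithelial state, was higher in hESCs in 8 of 8 arms, with a median of 6.50. miR-200b-3p had 6473, 5736 and 6078 CPM in hESC WT and 11.6, 18.2 and 4.45 CPM in K562 control (9.06, SE 0.60, adjusted p = 7.69e-06). miR-200c-3p, from a separate locus on chromosome 12, had 5213, 5261 and 5362 CPM in hESC WT and 51.4, 36.5 and 41.1 CPM in K562 control (6.94, SE 0.22). miR-200a-3p varied in K562, with 501, 478 and 443 CPM in hESC WT and 2.99, 23.0 and 0.876 CPM in K562 control (5.75). With K562 control libraries 1 and 2 left out, the K562 spread is not measured, so that fit cannot decide how many arms of the family differ. miR-221 and miR-222, which target the cell cycle inhibitor CDKN1B, were higher in 4 of 4 arms. miR-221-3p had 5844, 6425 and 6633 CPM in hESC WT and 226, 224 and 259 CPM in K562 control (4.74), and miR-222-3p had 4768, 4582 and 4875 CPM in hESC WT and 217, 153 and 257 CPM in K562 control (4.50).

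Several single miRNAs were nearly absent from K562. miR-155-5p, best known from activated lymphocytes and macrophages, had 300, 277 and 294 CPM in hESC WT, against 0.325, 0.397 and 0.337 CPM in K562 control (9.66, SE 0.23, adjusted p = 1.82e-07). miR-455-3p, in an intron of COL27A1, had 235, 250 and 255 CPM in hESC WT and 0.195, 0.297 and 0.0674 CPM in K562 control (10.37). Neither line's libraries came near those of the other. miR-187-3p had 609, 713 and 696 CPM in hESC WT and 1.17, 0.496 and 0 CPM in K562 control (10.20), and miR-130a-3p had 220, 194 and 190 CPM in hESC WT and 0.584, 0.991 and 0.135 CPM in K562 control (8.51). miR-130a-5p had 1 count in K562 control, with a pooled ratio of 4227 (95% counting interval 758 to 166993). miR-335-3p, in an intron of the imprinted gene MEST, had 3710, 4597 and 4811 CPM in hESC WT and 12.9, 10.9 and 3.84 CPM in K562 control (8.89). The p53-induced miR-34 family was higher in 4 of 5 arms tested with miR-449, led by miR-34a-5p with 135, 203 and 199 CPM in hESC WT and 0.974, 1.59 and 0.202 CPM in K562 control (7.65).

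Blood miRNAs were examined as markers, and the myeloid and lymphoid list was mixed. Of 11 myeloid and lymphoid miRNAs tested, 6 were lower and 4 higher in hESCs, with a median of -6.77. Of all 894 miRNAs, 32.4% were lower and 37.9% higher. miR-223-3p, a regulator of granulocyte formation, had 0.326, 0.479 and 0.219 CPM in hESC WT, against 996, 728 and 798 CPM in K562 control (-11.21, SE 0.33, adjusted p = 3.52e-07), and its opposite strand changed alike (-11.48). miR-142-3p, found throughout blood lineages, had 4.49, 1.34 and 1.10 CPM in hESC WT and 850, 729 and 785 CPM in K562 control (-8.38). For both miRNAs the hESC WT libraries held few reads, so fold sizes carry the counting error of those few. miR-146b-5p, induced by NF-kB signalling, had 332, 326 and 361 CPM in hESC WT and 32913, 31333 and 46800 CPM in K562 control (-6.77). The 4 members called the other way were miR-155-5p (9.66), miR-150-5p with 10.7, 5.17 and 6.14 CPM in hESC WT and 0.844, 0.793 and 0.202 CPM in K562 control (3.59), and both arms of miR-342. miR-342-3p (1.15) turned to -0.04 with library totals. miR-146a-5p, which differs from miR-146b-5p near its 3′ end, was not called over all libraries (-0.15) but was called lower without hESC WT library 1 (-0.81, adjusted p = 0.0218), where it stood at 527 CPM.

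All 5 erythroid arms were lower in hESCs, with a median of -5.42. miR-451a, which is cut by AGO2 without Dicer, had 6.36, 6.70 and 11.7 CPM in hESC WT and 406, 320 and 334 CPM in K562 control (-5.42). miR-144-5p from the same transcript had 1.47, 1.44 and 2.74 CPM in hESC WT and 226, 241 and 222 CPM in K562 control (-6.94). The groups were fully apart for both. miR-144-3p had 3 counts in hESC WT, and its pooled ratio was 0.00236 (95% counting interval 0.000486 to 0.00691). miR-486-5p, in the erythroid gene ANK1, had 304, 365 and 348 CPM in hESC WT and 4573, 3970 and 3886 CPM in K562 control (-3.61). miR-126-3p, known from endothelium, stem and progenitor blood cells, had 639, 802 and 781 CPM in hESC WT and 18044, 18762 and 19327 CPM in K562 control (-4.66).

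miRNAs embedded in the HOX clusters, the homeotic gene arrays that are silent in pluripotent cells, stood out among the lowest in hESCs and were grouped after their values were seen, so no test was made of the group. Of 9 arms listed, 5 were tested, 4 were lower and 0 higher, with a median of -8.84. miR-10a-5p had 4.57, 3.83 and 7.78 CPM in hESC WT, against 8445, 6864 and 9350 CPM in K562 control (-10.58, SE 0.40, adjusted p = 7.31e-07). miR-196a-5p, from an intron of HOXC6 on chromosome 12 and one of HOXB7 on chromosome 17, had 0.326, 0 and 0.658 CPM in hESC WT and 68.4, 60.1 and 66.5 CPM in K562 control (-7.63). The hESC WT libraries held from 0 to 6 reads of miR-196a-5p. miR-615-3p, in an intron of HOXC5, had 0.163, 0.0958 and 0.219 CPM in hESC WT and 66.3, 81.8 and 83.1 CPM in K562 control (-8.84). miR-10b-5p of the HOXD cluster was the exception, with 36.5, 23.8 and 25.7 CPM in hESC WT and 34.3, 70.5 and 29.8 CPM in K562 control (-0.64, adjusted p = 0.157). It was called without K562 control library 3 (-0.95, adjusted p = 0.0453), and it differs from miR-10a-5p by so little that reads may be shared.

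The 5 hematopoietic miRNAs that the study followed did not share a direction between the unperturbed lines: 1 was higher, 2 were lower and 2 were not called. Of all 894 miRNAs, 37.9% were higher and 32.4% lower, so this count does not set the 5 apart from the rest. miR-125a-5p had 386, 355 and 321 CPM in hESC WT and 326, 283 and 378 CPM in K562 control (0.10, 95% interval -0.29 to 0.50). miR-125b-5p, from the same family with other loci, had 67.1, 43.5 and 40.2 CPM in hESC WT and 6.04, 3.97 and 5.59 CPM in K562 control (3.27, SE 0.31, adjusted p = 4.89e-05). miR-125a-5p thus overlapped between lines and miR-125b-5p did not. miR-199a-3p had 60.3, 32.8 and 38.4 CPM in hESC WT and 29.2, 55.9 and 57.4 CPM in K562 control (-0.12, 95% interval -0.92 to 0.69). It has all 22 bases in common with miR-199b-3p, so the 2 entries cannot be separated. Their counts were nearly equal (739 and 722 in hESC WT library 1, 450 and 453 in K562 control library 1). miR-142-5p had 6.77, 1.72 and 1.86 CPM in hESC WT and 388, 504 and 411 CPM in K562 control (-6.95), and miR-223-3p is given above. The opposite strand went with its partner for miR-223, miR-142 and miR-125b, whereas miR-125a-3p was lower (-1.30) with miR-125a-5p not called. The study followed these 5 in other comparisons that also used these libraries.

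**Figure D4:**
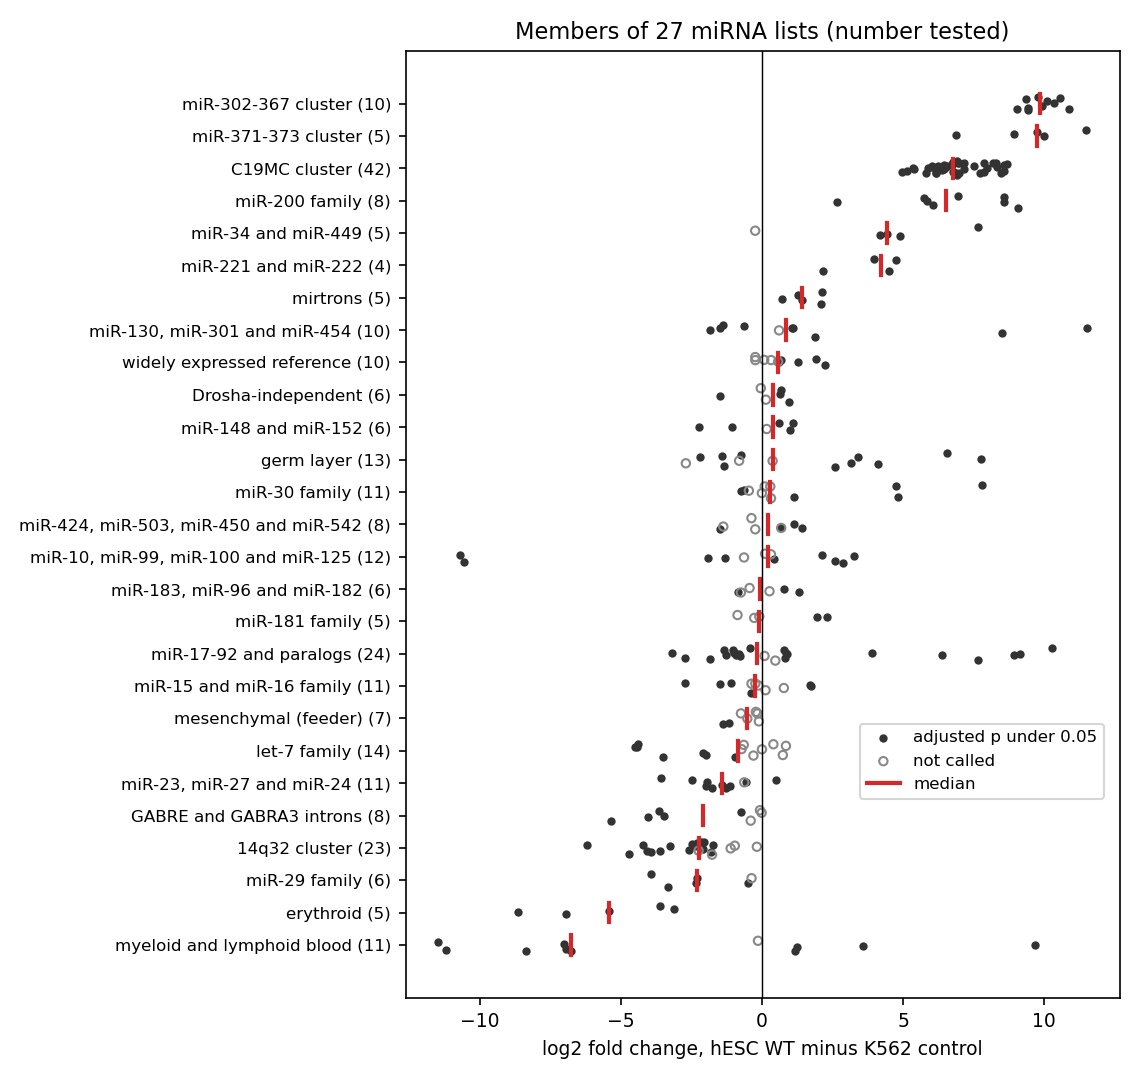
log2 fold change (hESC WT minus K562 control) of the tested members of 27 miRNA lists, with filled points called at an adjusted p under 0.05, open points not called and a red bar at each list's median. The miR-302, miR-371-373, C19MC, miR-200 and miR-221 and miR-222 lists lie wholly above 0 and the erythroid, 14q32, miR-29 and GABRE lists wholly below it, while lists such as miR-15 and miR-16 or miR-30 straddle 0.

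The let-7 family, which promotes differentiation and is kept low in stem cells by LIN28, was lower in 7 of 14 arms and higher in 0, with a median of -0.85. let-7f-5p had 124, 185 and 263 CPM in hESC WT and 2253, 2203 and 2063 CPM in K562 control (-3.51, SE 0.29), and let-7e-5p had 23.7, 24.1 and 24.3 CPM in hESC WT and 467, 616 and 570 CPM in K562 control (-4.52). let-7a-5p, the most abundant member, had 1204, 2758 and 3616 CPM in hESC WT and 1484, 1613 and 1459 CPM in K562 control, overlapping (0.73, adjusted p = 0.101). It was called higher without hESC WT library 1 (1.13, adjusted p = 0.000267) and turned to -0.51 with library totals. Members of the family differ by few bases and can share reads. let-7a-5p made up 76.5, 81.3 and 82.5% of the GAGGUAG seed counts in hESC WT and 29.4, 29.9 and 28.4% in K562 control, while let-7f-5p made up 7.87, 5.46 and 6.01% in hESC WT and 44.7, 40.8 and 40.2% in K562 control. The seed total had 1654, 3672 and 4662 CPM in hESC WT and 5166, 5686 and 5276 CPM in K562 control (-0.69, edgeR adjusted p = 0.109). Among fits that left out 1 library, it was called only without hESC WT library 3 (-1.02, adjusted p = 0.0324). With library totals in place of TMM it was called lower in hESCs as well.

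The imprinted miRNA cluster of 14q32, expressed from the maternal chromosome, was lower in hESCs in 18 of 23 arms tested and higher in 0, with a median of -2.25. Of its other arms, 26 were listed for K562 control only and 3 for hESC WT only. miR-381-3p had 4.65, 7.37 and 5.59 CPM in hESC WT and 151, 182 and 128 CPM in K562 control (-4.71, SE 0.27, adjusted p = 3.44e-06). miR-127-3p had 8.24, 5.46 and 3.62 CPM in hESC WT and 71.6, 72.0 and 69.4 CPM in K562 control (-3.61). Levels in K562 were moderate, and those in hESCs were low in all 3 libraries. miR-493-3p had 0.571, 0.575 and 0.548 CPM in hESC WT and 46.5, 39.6 and 42.8 CPM in K562 control (-6.22). Without K562 control libraries 1 and 2 the fit has no measure of the K562 spread, so it cannot decide how many arms of the cluster differ. On the X chromosome, 5 of 8 arms within the genes GABRE and GABRA3 were lower and 0 higher. miR-224-5p had 90.6, 320 and 352 CPM in hESC WT and 2722, 3106 and 3789 CPM in K562 control (-3.66), and miR-452-5p, which like miR-224-5p is annotated within GABRE, changed by -3.46.

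Smaller shifts were found in widely expressed families. The miR-29 family, which targets collagens and DNA methyltransferases, was lower in 5 of 6 arms, led by miR-29c-5p with 3.34, 4.31 and 4.71 CPM in hESC WT and 69.9, 59.2 and 61.9 CPM in K562 control (-3.95). In the miR-23, miR-27 and miR-24 clusters, 9 of 11 arms were lower and 1, miR-27b-3p, higher. miR-23a-3p had 111, 49.8 and 51.5 CPM in hESC WT and 309, 265 and 271 CPM in K562 control (-1.99). The call of miR-27b-3p (0.50, adjusted p = 0.0215) was lost without K562 control library 1 or 3 or hESC WT library 2 or 3, and its sign turned with library totals (-0.72). All 5 mirtrons tested, hairpins freed by splicing instead of Drosha, were higher in hESCs (median 1.42), with miR-877-5p at 255, 202 and 192 CPM in hESC WT and 48.4, 50.3 and 49.5 CPM in K562 control (2.13). With library totals 2 of the 5 were called. Among abundant single miRNAs, miR-21-5p had 33851, 38226 and 38546 CPM in hESC WT and 99945, 78790 and 98592 CPM in K562 control (-1.33), and miR-378a-3p had 5337, 6785 and 6986 CPM in hESC WT and 14388, 14748 and 13632 CPM in K562 control (-1.16). miR-148a-3p had 340560, 471659 and 520539 CPM in hESC WT and 203085, 221325 and 251864 CPM in K562 control (0.98), a direction that rested on the TMM scaling, since it was -0.24 with library totals, and its call was lost without K562 control libraries 1 and 2 (0.75, adjusted p = 0.0828).

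Several families had members on both sides, among them miR-15 with miR-16, miR-30, and miR-148 with miR-152. In the miR-15 and miR-16 family, 2 arms were higher, 4 lower and 5 not called. miR-183-5p had 5058, 5888 and 6472 CPM in hESC WT and 2844, 2030 and 2089 CPM in K562 control (1.32), whereas miR-96-5p from the same transcript had 880, 1137 and 1141 CPM in hESC WT and 2110, 1618 and 2025 CPM in K562 control (-0.87). With TMM the arms of 1 primary transcript thus moved in both directions. Library totals moved every fold change by about -1.20, a shift near the size of the miR-183-5p change. miR-130b-3p, a homolog of miR-130a-3p with the same seed, was lower (-1.51) where miR-130a-3p was higher (8.51). In other families, the log2 fold change was 2.28 for miR-181d-5p, 1.43 for miR-503-5p and -1.50 for miR-424-3p.

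Markers of other cell types were present in both lines. Of 13 germ layer miRNAs tested, 6 were higher and 4 lower in hESCs, where 37.9% and 32.4% of all 894 were. The 4 lower ones were miR-192-5p (-1.37), miR-215-5p (-2.19), miR-194-5p (-0.77) and miR-122-5p (-1.42). miR-192-5p and miR-215-5p can share reads. The call of miR-122-5p was lost without hESC WT library 2 or 3 or K562 control library 1. miR-9-5p, a neural miRNA, had 1254, 2547 and 2569 CPM in hESC WT and 239, 193 and 167 CPM in K562 control (3.41, SE 0.32). miR-1-3p of striated muscle had 1457, 959 and 1109 CPM in hESC WT and 29.5, 136 and 36.7 CPM in K562 control (4.12), with K562 control library 2 above the other 2. The mesenchymal markers, listed because fibroblast feeders are one of the described culture conditions, summed to 882, 454 and 511 CPM in hESC WT and to 1200, 923 and 1253 CPM in K562 control. Of 7 tested, 2 were lower in hESCs (miR-143-3p at -1.16 and miR-145-5p at -1.37) and 0 higher. The summed level of these markers was thus lower in hESC WT than in K562 control. K562 is another cell type, so this comparison cannot show whether feeder RNA was present, which was not tested.

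With the TMM scaling, some abundant miRNAs were alike within narrow bounds. For 93 miRNAs the 95% interval of the log2 fold change lay within 1 unit of 0. miR-191-5p, a widely used reference miRNA, had 3414, 2907 and 2737 CPM in hESC WT and 2744, 2806 and 3058 CPM in K562 control (0.07, 95% interval -0.28 to 0.42). miR-128-3p had 2570, 3449 and 3745 CPM in hESC WT and 4117, 3594 and 3727 CPM in K562 control (-0.23, interval -0.65 to 0.19). Both overlapped between lines. miR-30d-5p had 7299, 9270 and 9552 CPM in hESC WT and 6461, 6169 and 8744 CPM in K562 control (0.29, interval -0.16 to 0.74). With library totals the same 93 were all called lower in hESCs, with a median of -1.24, and the values were -1.12 for miR-191-5p, -1.45 for miR-128-3p and -0.91 for miR-30d-5p. Of 10 widely expressed miRNAs taken as a reference list, 5 were higher and 0 lower in hESCs, with a median of 0.58, and 2 were higher and 6 lower with library totals. The largest of these, miR-103a-3p (2.24), is the reverse complement of miR-103b and uncertain for that reason. So are miR-7-5p and miR-3529-3p, each at a log2 fold change of 1.32, whose counts were nearly equal (123934 and 123919 in hESC WT library 2, 28643 and 28707 in K562 control library 2).

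Entries listed for 1 line only were rare ones. Of the 400 listed for hESC WT only, 88 had a mean of at least 1 CPM, and of the 297 listed for K562 control only, 29 had. The most abundant in hESC WT were miR-520a-5p of C19MC at 51.5, 43.0 and 43.5 CPM and miR-935 at 42.2, 42.4 and 37.8 CPM. Against a floor of 3 counts in K562 control library 1, miR-520a-5p was at least 236-fold and miR-200b-5p at least 187-fold higher. In K562 control, miR-5787 led with 27.4, 34.8 and 11.5 CPM, followed by miR-3157-3p with 18.5, 21.4 and 17.2 CPM. Against 3 counts in hESC WT library 1, miR-3157-3p was at least 77.8-fold lower in hESC WT.

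Neighboring miRNAs were compared in 26 genomic clusters, defined as hairpins no more than 10 kb apart with at least 4 tested arms. Of these, 18 had calls in 1 direction only, 6 in both and 2 had no call. The miR-106a-363 cluster was among the 6 only through the 2 entries that it shares with the MIR17 cluster. 4 of the 18 rested on a single called arm, which leaves 14 with at least 2 calls, all in 1 direction. The C19MC stretch (chr19:53666679-53762430) was higher in hESCs for 41 of 41 arms, and the MIR17 cluster (chr13:91350605-91351391) was lower for 11 of 11. C19MC arms nearly absent from K562 control passed the filter only through hESC WT. The MIR532 cluster (chrX:50003148-50014683) had 8 arms lower and 4 not called, and the MIR24-2 cluster on chromosome 19 had 6 of 6 lower. Arms of 1 cluster come from shared transcripts and are not independent. Over 793 miRNAs with a sequence, the log2 fold change had a Spearman's rho of 0.00 with GC content and 0.15 with length, as a description across miRNAs.

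Which arm of a hairpin dominated was mostly the same in both lines. Of 179 hairpins with both arms measured, 165 had the same dominant arm. Spearman's rho of the 5p over 3p ratio between the lines was 0.956 across hairpins, given as a description. By limma on the log2 ratio of 5p over 3p counts, 55 hairpins (30.7%) differed, 30 (16.8%) with more 5p and 25 (14%) with more 3p in hESCs. 9 of these had another dominant arm. For miR-18b of the X cluster, the 5p arm made up 13.4, 18.2 and 23.3% of both arms in hESC WT, against 98.1, 98.9 and 100% in K562 control, where the 3p arm had 3 counts (change of the log2 ratio -8.22, SE 0.53, adjusted p = 9.37e-05). The 5p arm itself had 8.32, 8.71 and 9.87 CPM in hESC WT and 6.62, 9.22 and 3.71 CPM in K562 control, and the 3p arm had 53.6, 39.3 and 32.4 CPM in hESC WT and 0.130, 0.0991 and 0 CPM in K562 control. miR-18b-5p is so close to miR-18a-5p that its reads may be shared. For miR-135a the 5p arm made up 90.1, 94.1 and 91.9% in hESC WT and 35.4, 33.8 and 28.2% in K562 control (4.60, SE 0.39, adjusted p = 0.000316). miR-135a-5p has a second hairpin with its own 3p arm, miR-135a-2-3p, which was itself higher in hESCs with 159, 102 and 120 CPM in hESC WT and 0.195, 0.297 and 0.0674 CPM in K562 control (9.41).

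Further hairpins with another dominant arm were miR-628, with 75.8, 68.5 and 70.2% 5p in hESC WT and 36.1, 44.1 and 31.5% in K562 control (2.08), and miR-374a, with 55.4, 54.7 and 48.7% in hESC WT and 36.8, 35.2 and 32.2% in K562 control (1.08). miR-30e moved the other way, with 43.2, 49.7 and 48.6% in hESC WT and 59.1, 59.4 and 63.4% in K562 control (-0.79). Its call was lost without K562 control library 1 or 3. The most abundant hairpins kept their dominant arm although their ratios were called: the 5p share of miR-148a was 0.0547 to 0.0854% in hESC WT and 0.104 to 0.132% in K562 control (-0.80), and that of miR-21 was 99.9% in hESC WT and 99.7 to 99.8% in K562 control (1.02). The number of hairpins called fell to 30 without hESC WT library 2, to 34 without K562 control library 1 and to 11 without both K562 control libraries 1 and 2. In the last of these, miR-628, miR-374a and miR-30e were no longer called (adjusted p = 0.112, 0.0846 and 0.117), at changes of 2.43, 1.24 and -0.96.

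**Figure D5:**
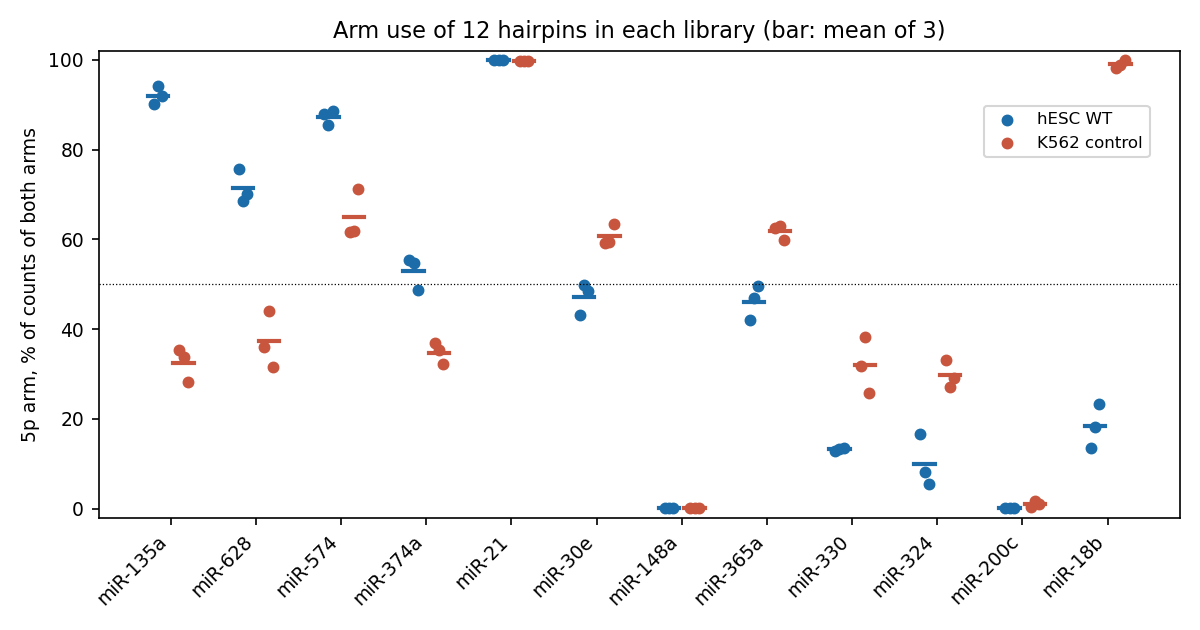
Share of the 5p arm among counts of both arms for 12 hairpins in each library, in percent, with hESC WT in blue left of K562 control in red and a bar at the mean of 3 libraries; the dotted line is 50%. miR-135a, miR-628 and miR-18b lie on opposite sides of 50% in the 2 lines, while miR-148a and miR-21 keep 1 arm in both.

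The same line difference was measured in libraries the comparison above did not use, those of H1 hESCs with a USB1 mutation and of a K562 USB1 KO clone. The cell lines are the same 2 and the edited gene is the same, so these libraries repeat the line difference in edited cells, the hESCs as picked clones and the K562 cells as a single-clone expansion. In a fit of all 4 groups over 892 miRNAs, 540 (60.5%) differed between USB1 mutant hESCs and USB1 KO K562 cells, 277 (31.1%) higher and 263 (29.5%) lower in hESCs. Of 574 miRNAs called between hESC WT and K562 control in this fit, 551 had the same sign between mutant and KO, 450 were called in the same direction and 4 in the opposite one. All 37 C19MC arms and 7 miR-200 arms in the fit were higher in USB1 mutant hESCs, and all 5 erythroid arms lower, as between the WT and control groups. Arms nearly absent from both K562 groups passed the filter only through the hESC groups, so their direction was fixed here too. Only 2 miR-302 arms were listed in all 4 groups, and both were higher in mutant hESCs than in KO K562 cells. Of the miR-371-373 arms in the fit 2 of 3 were called higher and 0 lower, and of the miR-221 and miR-222 arms 3 of 4 were called higher and 0 lower.

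The 4 called in opposite directions, miR-409-3p, miR-494-3p, miR-495-3p and miR-654-3p, all belong to the 14q32 cluster, and the mutant against KO call of miR-495-3p was lost without KO library 1 or 2, K562 control library 1 or USB1 mutant library 1 (adjusted p 0.0506 to 0.328). The 20 cluster arms in this fit summed to 31.3, 23.1 and 21.1 CPM of library totals in hESC WT, against 594, 650 and 484 in K562 control. They summed to 37.3, 45.8 and 27.6 in USB1 mutant hESCs, against 56.1, 68.7 and 125 in USB1 KO K562 cells. The K562 control libraries therefore stood above the other 9, and the median log2 fold change over these arms was -2.48 between hESC WT and K562 control and 0.74 between mutant and KO, both with TMM. With library totals the mutant against KO median was 0.09, with 3 arms called higher and 4 lower, against 6 higher and 1 lower with TMM, so the direction between mutant and KO rested on the scaling. By edgeR's test of the difference of the line differences, 28 of 892 miRNAs (3.14%) were called at an adjusted p under 0.05, 7 (0.785%) positive and 21 (2.35%) negative, and 10 of the negative ones were 14q32 arms. miR-381-3p had 3.28, 4.79 and 3.47 CPM of library totals in hESC WT and 234, 292 and 181 in K562 control. It had 11.1, 11.1 and 5.97 in USB1 mutant hESCs and 12.6, 18.9 and 26.8 in USB1 KO K562 cells (difference -5.15, SE 0.41, adjusted p = 2.71e-06). A change of the K562 clone and a change with USB1 cannot be told apart. The number of calls fell to 13 without K562 control library 1 and to 14 without hESC WT library 3, with 15 to 18 without hESC WT library 2, USB1 mutant library 2 or KO library 1 or 2. It was also 13 without K562 control libraries 1 and 2.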

How the data were processed

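Per the labels and the study's methods, total RNA was isolated with Trizol and made into Lexogen small RNA libraries. The authors trimmed reads with cutadapt 2.5, aligned them to human miRBase entries with Bowtie2 2.2.9 (no mismatch in the alignment seed) and used SAMtools 1.3.1. No strand filter is given in the sources used here. The deposited tables hold raw counts of each mature miRNA as the authors made them, and 0 columns of values were left out. The K562 control columns bear names that are also titles of hESC samples, so they were assigned to their group by the description label, and their library numbers only name columns. Adaptor rows (0.00559 to 0.00644% of hESC WT and 0.0104 to 0.0301% of K562 control counts) were removed. Totals of 6287087 to 17359868 counts make 1 count worth 0.0649 to 0.110 CPM.

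Samples were grouped by the labels. Rows listed in both tables were filtered with filterByExpr (minimum count 10, total 15) and fitted with edgeR 4.0.16 (TMM, robust quasi-likelihood, R 4.3.3) on the 2 groups. The same fit was run on counts summed per seed, and limma 3.58.1 on log2 arm ratios (pseudocount 0.5, at least 30 counts per hairpin and library). A fit of 4 groups gave the mutant and KO comparison. The threshold was a Benjamini-Hochberg adjusted p of 0.05, or the same against a 2-fold change (glmTreat). Scripts were tested on simulated data. DESeq2 1.42.0, limma-voom, other scalings and filters, and leaving out libraries were alternatives. Counting intervals and the 3-count floor cover counting error only.

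The members and lists were chosen with earlier results of these data known. Named miRNAs are the 15 largest called changes each way without overlap at a mean log2 CPM of at least 5, the 10 most abundant per line, up to 4 abundant members of each list and members against its direction, the study's 5 hematopoietic miRNAs and their opposite strands, the 6 largest arm changes each way, the 5 most abundant entries listed for 1 line, the 6 most abundant with intervals within 1 unit, and the 6 most abundant seeds per line. Outside this rule, miR-335-3p, miR-17-5p, miR-19b-3p, miR-92b-3p, miR-367-3p, miR-520c-3p, miR-429, miR-23a-3p, miR-7-5p, miR-146a-5p, miR-144-3p, miR-10b-5p, the 4 miRNAs of opposite direction in edited cells, and the arm ratios of miR-628, miR-374a, miR-30e, miR-148a and miR-21 were chosen after their values were seen.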

Additional observations from a re-analysis of the deposited data

Results flagged for a closer look

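For 28 miRNAs the hESC minus K562 difference differed between the unperturbed pair (hESC WT and K562 control) and the edited pair (USB1 mutant hESCs and USB1 KO K562 cells), by edgeR's test of the difference itself at an adjusted p under 0.05. The log2 values that follow are the first difference minus the second, so a negative value means that hESCs stood lower relative to K562 between WT and control than between mutant and KO. The 10 from the 14q32 cluster were miR-381-3p (-5.15), miR-409-3p (-4.93), miR-493-3p (-4.23), miR-495-3p (-4.11), miR-654-3p (-3.95), miR-134-5p (-3.81), miR-494-3p (-3.55), miR-379-5p (-3.45), miR-127-3p (-2.93) and miR-370-3p (-2.59). The other negative differences were those of miR-4671-5p (-4.09), miR-34b-3p (-3.53), miR-101-5p (-2.82), miR-4677-5p (-2.65), miR-135b-5p (-2.17), miR-335-3p (-2.14), miR-9903 (-1.80), miR-625-3p (-1.76), miR-550a-5p (-1.40), miR-105-5p (-1.36) and miR-126-3p (-1.31). The positive ones were those of miR-30a-5p (1.47), miR-181b-5p (1.59), miR-1257 (2.52), miR-3681-5p (2.57), miR-9-5p (2.91), miR-9-3p (2.93) and miR-584-5p (3.60).

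The libraries show where these differences lie. miR-126-3p had 451, 521 and 484 CPM of library totals in hESC WT and 28040, 30106 and 27159 in K562 control, and 654, 530 and 465 in USB1 mutant hESCs and 13318, 15567 and 16634 in USB1 KO K562 cells. miR-9-5p had 885, 1655 and 1593 in hESC WT and 372, 309 and 234 in K562 control, and 668, 691 and 724 in USB1 mutant hESCs and 1519, 1338 and 1031 in USB1 KO K562 cells, so its order turned round on this scale (after TMM the mutant minus KO value was 0.32, not called). miR-584-5p had 7.37, 4.11 and 5.71 in hESC WT and 10.2, 13.4 and 10.9 in K562 control, and 2.60, 4.17 and 3.37 in USB1 mutant hESCs and 81.0, 92.3 and 133 in USB1 KO K562 cells. The call of miR-335-3p was lost without any 1 of 10 libraries (adjusted p 0.0789 to 0.150) and its value was -0.91 without K562 control libraries 1 and 2 (adjusted p = 0.728). The calls of miR-126-3p and miR-495-3p were each lost without any 1 of 7 libraries.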

How the results depend on the processing

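Most results kept their direction and call. Leaving out K562 control libraries 1 and 2, or hairpins whose arms can share reads, was chosen after seeing the data. Library totals in place of TMM mattered most, with 214 miRNAs higher and 486 lower, 142 seed sums higher and 361 lower, and 13 line differences that differed (8 negative). Under library totals the sign turned for miR-18b-5p (-0.77), miR-93-5p (-0.41), miR-106b-5p (-0.34), miR-25-3p (-1.13), miR-342-3p (-0.037), miR-125a-5p (-1.09), miR-99b-5p (-0.80), let-7a-5p (-0.51), miR-27b-3p (-0.72), miR-148a-3p (-0.24), miR-148b-3p (-0.12), miR-152-3p (-0.62), miR-151a-3p (-0.54), miR-191-5p (-1.12), miR-30d-5p (-0.91), miR-30c-5p (-0.092), miR-182-5p (-0.45), the seeds AUUGCAC (-1.10), CAGUGCA (-0.28) and UCAAGUA (-0.22), and, between mutant and KO, miR-381-3p (-0.46), miR-9-5p (-0.36) and miR-9-3p (-0.62). With no filter it turned for miR-25-3p (-0.063), miR-125a-5p (-0.047) and miR-191-5p (-0.077), and without K562 control libraries 1 and 2 for miR-125a-5p (-0.17), miR-191-5p (-0.093) and miR-30d-5p (-0.077). A minimum of 10 CPM left 390 miRNAs called (196 higher) and 279 seed sums (139 higher), with fewer entries tested. For arm ratios, 36 hairpins were called (19 more 5p) at 300 counts, 41 more 3p with a pseudocount of 5, 15 more 3p without hairpins whose arms can share reads, and 11 (4 more 5p and 7 more 3p) without K562 control libraries 1 and 2, which also left 13 line differences that differed (8 negative). DESeq2 called 48 line differences as different (15 positive and 33 negative). Causes of these shifts were not tested unless stated. Leaving out 1 library at a time gave 565 to 631 miRNAs called (307 to 337 higher, 255 to 294 lower), 30 to 48 hairpins (15 to 24 more 5p, 15 to 24 more 3p), 403 to 459 seed sums (224 to 241 higher, 179 to 219 lower), 488 to 551 miRNAs between mutant and KO (253 to 288 higher, 220 to 270 lower) and 13 to 29 line differences that differed (4 to 9 positive, 9 to 22 negative). Signs turned within these ranges for miR-25-3p (-0.058 to 0.22), miR-125a-5p (-0.084 to 0.20), miR-191-5p (-0.036 to 0.17), miR-105-5p (-0.19 to 0.052), miR-199a-3p (-0.41 to 0.069), miR-146a-5p (-0.81 to 0.13) and, between mutant and KO, miR-9-3p (-0.17 to 0.27). Replicate numbers did not pair the samples (correlations of same-numbered libraries 0.03, -0.03 and 0.11), and a fit with the replicate number as a block called 313 miRNAs higher and 266 lower, 44 hairpins, 424 seed sums, 520 between mutant and KO and 22 line differences. Calls lost there included the abundant miR-302 arms. K562 control library 2, at 6287087 counts, limits the precision for rare miRNAs.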
